A study of Sus scrofa with 24 samples.

Results

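Matrix metalloproteinases (MMPs) and the tissue inhibitors that block them (TIMPs) were followed in dorsal subcutaneous fat of Iberian piglets. The set held 10 genes taken by their symbols: MMP2, MMP3, MMP9, MMP12, MMP14, MMP19, TIMP1, TIMP2, TIMP3 and TIMP4. Of these, 8 were matched in a table of 25880 Ensembl gene IDs, 14857 of which had a symbol in the gene name table used, and MMP3 and TIMP2, whose symbols matched no row, are not analysed here. The matched genes were MMP2 (ENSSSCG00000002829), MMP9 (ENSSSCG00000007436), MMP12 (ENSSSCG00000014987), MMP14 (ENSSSCG00000002039), MMP19 (ENSSSCG00000000368), TIMP1 (ENSSSCG00000012277), TIMP3 (ENSSSCG00000031866) and TIMP4 (ENSSSCG00000033000). All 8 had enough counts to be tested in every comparison.

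The study sequenced polyadenylated RNA from 24 male piglets of 33 days, 5 days after weaning, with 6 animals per maternal diet and 1 piglet per litter. Sows received their diet between day 85 of gestation and weaning at day 28 of lactation, and each piglet was an experimental unit, so that p-values measure the spread between animals. The combined diet (VEHT) contained 100 mg of α-tocopheryl acetate, a form of vitamin E, and 1.5 mg of hydroxytyrosol, a phenol of the olive, per kg of feed, the VE diet had the same added vitamin E without hydroxytyrosol, the HT diet had 1.5 mg of hydroxytyrosol with 30 mg of α-tocopheryl acetate, and the control diet (C) had 30 mg of α-tocopheryl acetate alone. These are added amounts, and the study's feed analysis found vitamin E in every diet beyond what was added, most of all in HT and C, so the diets differed less in vitamin E than the added amounts do. The question of every comparison was whether a higher vitamin E level, hydroxytyrosol or their combination in the sow altered expression in her offspring.

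MMPs are zinc-dependent proteases that cut collagens, laminins, elastin and other parts of the extracellular matrix, and most are secreted as inactive proenzymes. TIMPs bind the active site of MMPs and block it, so that the balance between both families sets how fast matrix is turned over. In fat, growing adipocytes and new vessels need the surrounding matrix and basement membrane to be opened and rebuilt, and macrophages add proteases of their own when the tissue is inflamed.

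The 8 genes lie on 7 chromosomes of the Sscrofa11.1 assembly in the RefSeq annotation. The gelatinase gene MMP2 is at chr6:30059247-30087031 on the minus strand and the gelatinase gene MMP9 at chr17:48179690-48186782 on the plus strand. MMP12, which encodes macrophage elastase, is at chr9:33473625-33483630, the membrane-bound protease gene MMP14 at chr7:76174502-76185931 and MMP19 at chr5:21279514-21285943, all on the minus strand. The inhibitor gene TIMP1 is at chrX:42103251-42106289 on the plus strand, TIMP3 at chr5:12185816-12242599 and TIMP4 at chr13:68179803-68191199 on the minus strand. Each of these inhibitor genes lies inside a synapsin gene of the opposite strand: TIMP1 within SYN1, TIMP3 within SYN3 and TIMP4 within SYN2. Exons of TIMP4 and SYN2 share 90 bases, and the other pairs share 0 exonic bases. No source gives the strand setting of the counting, so reads of a TIMP gene and its synapsin partner cannot be told apart where they overlap. The synapsin genes were at 0.530 to 27.5 CPM (SYN1), 0.0257 to 0.560 CPM (SYN2) and 0 to 1.42 CPM (SYN3) over the 24 libraries, below the lowest value of their TIMP partner in each case.

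Promoter sequences of the members differ, and those of MMP9, MMP12 and MMP19 are shown because they share the AP-1 motif, the binding site of FOS and JUN proteins that cytokines activate. Each is the 250 bases before the RefSeq gene start, read 5′ to 3′ on the strand of the gene, with the AP-1 letters TGAGTCA in capitals.
MMP9 (chr17:48179440-48179689, plus strand): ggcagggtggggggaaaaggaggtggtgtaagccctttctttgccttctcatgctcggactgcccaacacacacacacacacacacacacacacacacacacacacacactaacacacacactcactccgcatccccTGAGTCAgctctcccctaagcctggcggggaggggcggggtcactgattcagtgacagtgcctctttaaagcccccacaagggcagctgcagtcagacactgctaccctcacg
MMP12 (chr9:33483631-33483880, minus strand): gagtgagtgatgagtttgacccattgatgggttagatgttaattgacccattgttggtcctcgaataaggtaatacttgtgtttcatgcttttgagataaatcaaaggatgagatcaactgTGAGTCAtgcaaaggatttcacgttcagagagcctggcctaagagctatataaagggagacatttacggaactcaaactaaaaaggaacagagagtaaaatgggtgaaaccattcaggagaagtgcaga
MMP19 (chr5:21285944-21286193, minus strand): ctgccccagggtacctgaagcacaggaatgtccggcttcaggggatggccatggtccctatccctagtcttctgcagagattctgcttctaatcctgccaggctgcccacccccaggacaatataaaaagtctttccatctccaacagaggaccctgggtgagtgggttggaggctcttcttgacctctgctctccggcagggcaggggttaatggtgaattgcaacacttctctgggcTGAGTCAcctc
The motif, searched on both strands, begins 113 bases before the gene start in MMP9, 129 in MMP12 and 11 in MMP19, and the window of MMP3 holds it 75 bases before the start. Of 19556 promoter windows of this length, 567 (2.9%) held it. The window of MMP2 had no AP-1 letters and is shown for its GC boxes, the letters GGGCGG or CCGCCC that SP1-type factors bind, which are in capitals.
MMP2 (chr6:30087032-30087281, minus strand): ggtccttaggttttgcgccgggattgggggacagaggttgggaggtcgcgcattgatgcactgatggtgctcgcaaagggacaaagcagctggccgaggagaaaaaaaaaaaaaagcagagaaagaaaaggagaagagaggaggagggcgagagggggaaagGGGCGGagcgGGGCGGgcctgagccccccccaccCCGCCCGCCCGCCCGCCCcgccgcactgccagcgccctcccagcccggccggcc
MMP2 had 6 GC box matches, TIMP2 and TIMP3 had 4 each, MMP14 had 2 and MMP9 had 1, and 45.9% of all windows held at least 1. The TATA box letters TATAAA stood in the windows of MMP3, MMP12 and MMP19, against 9.77% of all windows, and the ETS letters AGGAAG in those of MMP3 and TIMP4, against 25% of all windows. These matches describe letters and were not tested as binding sites.

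Libraries held 36614639 to 61919211 gene counts (median 47564362), and levels are given as CPM, the counts scaled to a common library size, on library sizes scaled with the TMM method. Adipocyte markers were detected in every library, with 8 of 9 listed markers in the table and a summed level of 1882 to 20872 CPM. Skeletal muscle markers ran from 11.5 to 47563 CPM and were above the adipocyte markers in some libraries. They stood at 40629 against 4855 CPM in HT animal G121 and at 44887 against 5010 CPM in VEHT animal G208. In VE animal G085 they were at 11.5 against 13019 CPM. Detected adipocyte markers thus do not measure how pure the fat samples were. Libraries of 3 animals stood apart: G041 and G047 of diet C and G141 of diet VEHT. Their 15 macrophage markers summed to 11740 to 15472 CPM, against 365 to 3211 CPM in the other 21 libraries. Their 7 T cell markers summed to 331 to 472 CPM, against 27.4 to 150 CPM, and their adipocyte markers to 1882 to 2237 CPM, against 4855 to 20872 CPM. Endothelial markers were at 349 to 565 CPM, against 819 to 2390 CPM, and mural markers at 244 to 542 CPM, against 577 to 2056 CPM. Stromal progenitor, skeletal muscle and keratinocyte markers lay within the range of the rest. The 7 neutrophil markers in the table, of 10 listed, summed to 337 to 527 CPM in the 3 libraries and to 2.94 to 243 CPM in the other 21. Their highest levels over the 24 libraries were 306 CPM for CSF3R, 237 CPM for LTF, 118 CPM for S100A12, 98.0 CPM for S100A8 and 2.74 CPM for PGLYRP1. MPO and ELANE stayed under 1 CPM in all 24 libraries and were at 0 in 6 and 7 of them. In bulk tissue fewer cells of a type and less RNA per cell cannot be told apart.

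Levels were compared between genes only per kilobase of RefSeq exons. MMP2, which degrades denatured collagen and basement membrane collagen, had the highest median (249 CPM per kb, range 116 to 559), was first of the 8 genes in 16 of 24 libraries and second in the other 8. TIMP3, the inhibitor that stays bound to the matrix, followed with a median of 172.9 CPM per kb (68.6 to 245). MMP14, which sits on the cell surface, cuts collagen and activates the MMP2 proenzyme, had a median of 119 CPM per kb (45.6 to 239). These 3 ranges overlapped, and so did those of the next pair, TIMP1 with a median of 93.0 CPM per kb (39.0 to 2389) and MMP19 with 85.4 CPM per kb (25.8 to 247). TIMP4, an inhibitor known for its expression in fat and heart, was at 12.5 CPM per kb (2.63 to 26.5) and took the 6th place in 21 libraries. The last places were held by MMP9 with a median of 0.840 CPM per kb (0.0599 to 40.2) and MMP12 with 0.118 CPM per kb (0 to 19.3), whose ranges overlapped with each other and, through a few libraries, with those of genes far above them. TIMP1 was first of the 8 genes in 4 libraries, although it was 4th or 5th in 16.

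The genes also differed in how far they varied. The SD of log2 CPM over the 24 libraries was 0.47 for TIMP3, 0.57 for MMP2 and MMP14, 0.78 for TIMP4 and 0.91 for MMP19, against 1.57 for TIMP1, 2.17 for MMP9 and 2.41 for MMP12. The highest CPM was 3.57 times the lowest for TIMP3 and 670 times the lowest for MMP9. MMP12 was at 0 counts in 1 C library and 2 HT libraries, and its counts in other libraries reached 1469, so its values near 0 rest on few reads.

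**Figure D1:**
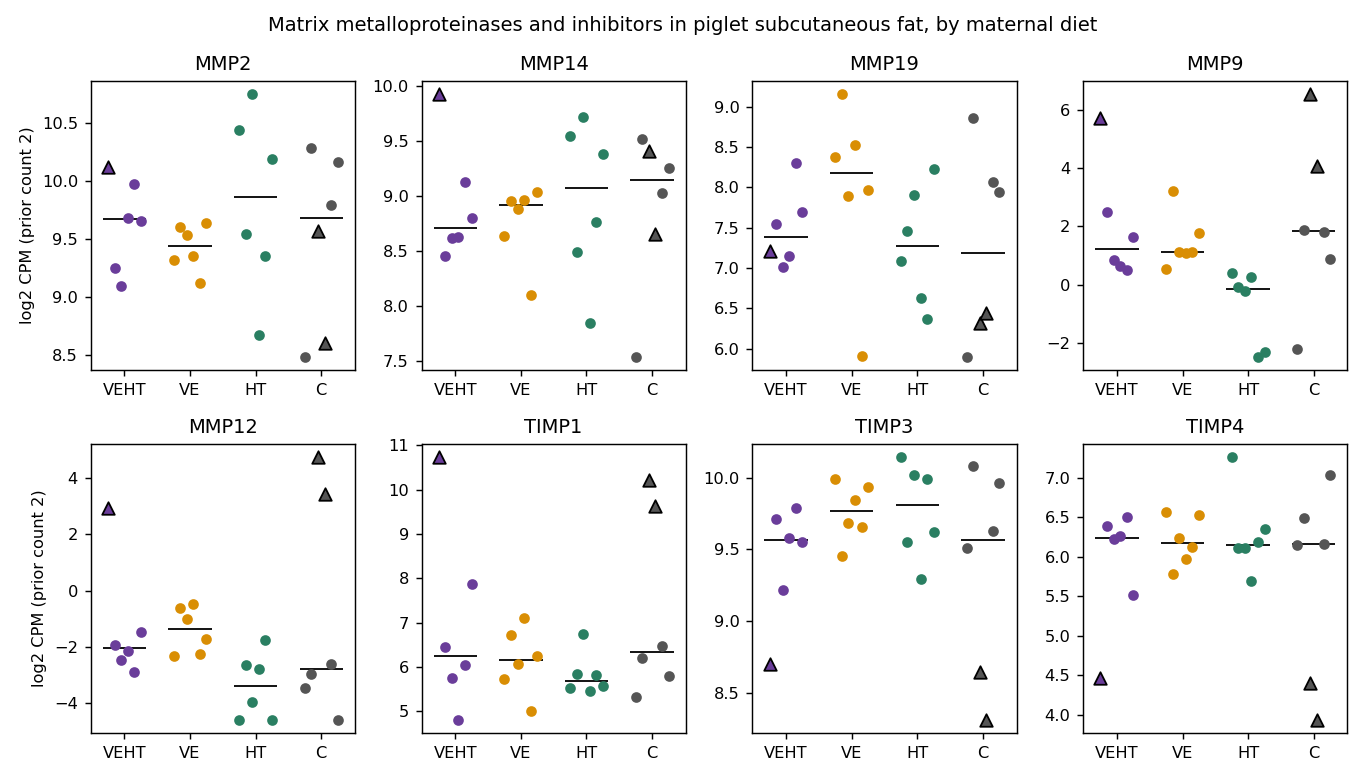
Level of each of the 8 genes in every library, as log2 CPM with a prior count of 2, by maternal diet. Points are animals, triangles mark G041, G047 (C) and G141 (VEHT), and bars are medians of 6 libraries. The triangles are the highest values of MMP9, MMP12 and TIMP1 and the lowest of TIMP3 and TIMP4.

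The 3 libraries rich in macrophage markers held the highest values of MMP9, MMP12 and TIMP1 and the lowest of TIMP3 and TIMP4. MMP9 was at 52.4 CPM in G141, 92.4 CPM in G041 and 16.9 CPM in G047, against 0.138 to 9.34 CPM in the other 21 libraries. MMP12 was at 7.61, 27.0 and 10.7 CPM in the same order, against 0 to 0.679 CPM in the other 21. TIMP1, an inhibitor that cytokines induce, was at 1711, 1196 and 793 CPM, against 27.9 to 232 CPM in the other 21. For each of these genes the 3 libraries lay above all others, with no overlap. TIMP3 was at 416, 401 and 317 CPM in G141, G041 and G047, against 595 to 1133 CPM in the other 21. TIMP4 was at 22.0, 21.1 and 15.2 CPM, against 45.5 to 153 CPM. Both inhibitors were thus lowest of all 24 libraries where TIMP1 was highest, while MMP2 (390 to 1112 CPM in the 3, 358 to 1723 CPM in the other 21) and MMP19 (80.0 to 149 CPM, against 59.5 to 570 CPM) lay within the range of the rest. MMP14 was highest of all in G141, at 973 CPM, and within the range of the rest in G041 and G047. These libraries were set apart by their marker levels and not by diet, so the values are a description and no test was made between them and the others. The share of all genes that separate the 3 libraries in the same way was not counted. Whether the members stand out in this is therefore not known.

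**Figure D2:**
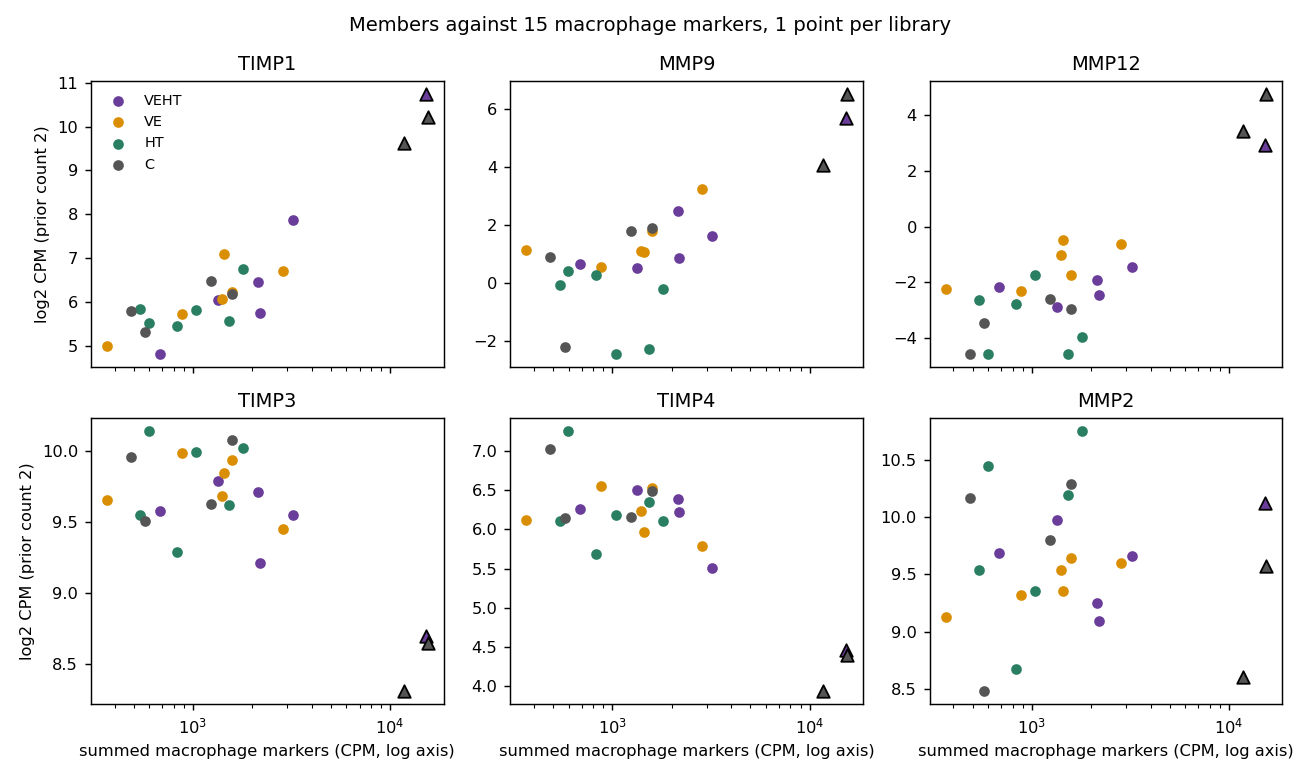
Log2 CPM (prior count 2) of 6 genes against the summed CPM of 15 macrophage markers on a log axis, 1 point per library, coloured by diet. The 3 triangles (G041, G047, G141) lie at 11740 to 15472 CPM of macrophage markers, high for TIMP1, MMP9 and MMP12, low for TIMP3 and TIMP4, and among the other libraries for MMP2.

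By diet, MMP9 was at 1.39, 2.40 and 52.4 CPM (lowest, median and highest) in VEHT, at 1.43, 2.13 and 9.34 CPM in VE, at 0.138, 0.864 and 1.28 CPM in HT and at 0.175, 3.55 and 92.4 CPM in C. All 6 HT libraries were below all 6 libraries of either vitamin E diet, while the C libraries spanned nearly the whole range. Of all genes, 0.506% showed no overlap between VE and HT in either direction, and 0.103% showed none between VEHT and HT. MMP12 was at 0.0927, 0.203 and 7.61 CPM in VEHT, at 0.161, 0.358 and 0.679 CPM in VE, at 0, 0.0624 and 0.256 CPM in HT and at 0, 0.104 and 27.0 CPM in C. TIMP1 was at 27.9, 76.6 and 1711 CPM in VEHT, at 32.1, 71.3 and 136 CPM in VE, at 44.0, 51.7 and 108 CPM in HT and at 40.0, 81.1 and 1196 CPM in C. For MMP12 and TIMP1 the diets overlapped, and the highest values of VEHT and of C lay far above all medians.

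The interaction between vitamin E and hydroxytyrosol, which asks whether vitamin E acts differently when hydroxytyrosol is also given, was called for MMP9, MMP12 and TIMP1. It is the log2 fold change of VEHT over HT minus that of VE over C, tested over all 24 libraries in edgeR by its quasi-likelihood F test at a q of at most 0.10, where q is the p adjusted over all genes by Benjamini-Hochberg. At this threshold 3 of the 8 members were called, all positive, against 696 of 17602 genes tested (3.95%). MMP9 had an interaction of 6.41 ± 1.65 (SE, adjusted p = 0.056), MMP12 of 8.08 ± 2.23 (adjusted p = 0.0691) and TIMP1 of 4.86 ± 1.32 (adjusted p = 0.0666). For these genes the estimate was negative for VE over C and positive for VEHT over HT. The other 5 members were not called: MMP2 was at -0.11 ± 0.46, MMP14 at 0.16 ± 0.47, MMP19 at -0.46 ± 0.68, TIMP3 at -0.62 ± 0.36 and TIMP4 at -0.51 ± 0.57, with adjusted p of 0.451 to 0.942 in edgeR. DESeq2 called the same 3 members, with adjusted p of 0.000296 to 0.00175, among 1255 genes (7.13%). The median interaction of the 8 members was 0.03, and that of all genes tested was 0.02.

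All 3 calls were lost without G041, G047 and G141. These 3 animals held the highest values of MMP9, MMP12 and TIMP1, and their diets, C and VEHT, enter the interaction with a plus sign. Leaving out the 3 animals lowers the interaction by construction, so the drop is no test of the calls. Without these animals the interaction in edgeR was 1.25 ± 0.98 for MMP9, -1.38 ± 1.28 for MMP12 and 0.37 ± 0.63 for TIMP1, each with an adjusted p of 0.995, and 0 genes of 17620 were called (0%), 662 had an unadjusted p under 0.05 (3.76%), none of them a member, and DESeq2 called 3 (0.017%), none of them a member. Leaving out 1 of these libraries was enough: without G141 the values were 4.38, 5.20 and 2.89 for MMP9, MMP12 and TIMP1, without G041 4.49, 6.55 and 4.03, and without G047 6.45, 7.86 and 4.50, with adjusted p of 0.105 to 0.321. The MMP9 call was also lost without G012, G077 or G220, at values of 6.30 to 6.48 and adjusted p of 0.104 to 0.106. The MMP12 call was also lost without G008, G012, G066, G077, G091, G121, G127 or G220 and the TIMP1 call without G008, G012, G077, G091, G121, G189 or G220, with MMP12 at 7.81 to 8.31, TIMP1 at 4.77 to 4.85 and adjusted p of up to 0.12. With limma voom, which gives libraries far from their group less weight, the interaction was 2.42 for MMP9, 0.30 for MMP12 and 0.65 for TIMP1 (adjusted p of 0.896 to 0.995). Markers of immune cells moved in the same contrast: 10 of 15 macrophage markers, 3 of 7 T cell markers and 2 of 7 neutrophil markers were called, all positive, against 3.95% of all genes. In the adipocyte, stromal progenitor, endothelial, mural, skeletal muscle and keratinocyte lists, 0 markers were called. The 3 libraries were set apart by their marker levels and belong to C and VEHT, so positive values of macrophage and T cell markers follow in this contrast. Those calls are thus no separate evidence about the members. The part of the immune cell markers in the values of the members was not tested.

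**Figure D3:**
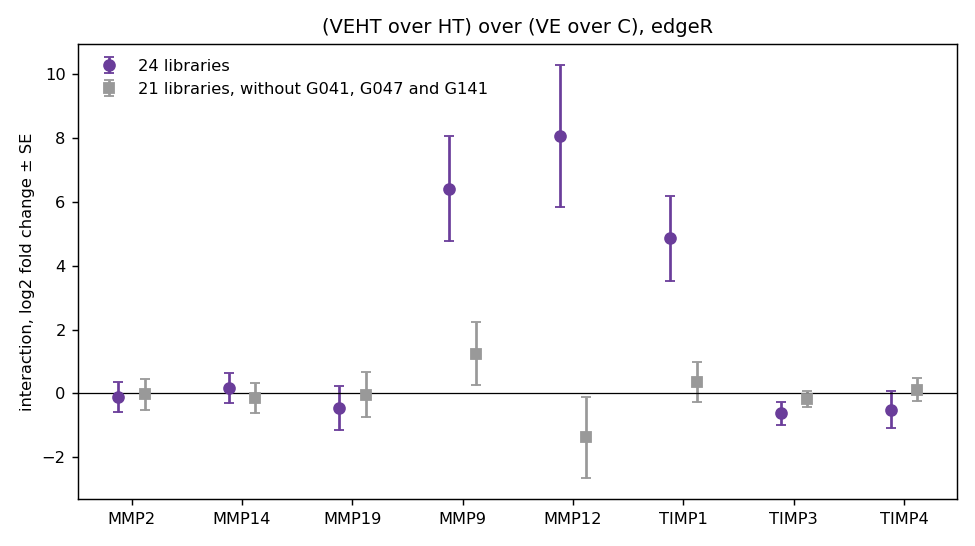
Interaction of vitamin E and hydroxytyrosol for each gene as a log2 fold change with its SE, from edgeR, over 24 libraries (purple) and over 21 libraries (grey). MMP9, MMP12 and TIMP1 stand at 4.86 to 8.08 with all libraries and at -1.38 to 1.25 without G041, G047 and G141.

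Between single diets, edgeR called none of the 8 members in any of the 6 pairs at an adjusted p of at most 0.10 and a fold change of at least 1.5, and it called 0 genes in all (0% in each pair). Pairs that have a diet in common share its 6 libraries, so their results are not independent of each other. In VE over C, 3 members had an unadjusted p under 0.05, against 12.1% of all genes: MMP9 at -2.54 ± 1.15, MMP12 at -4.01 ± 1.61 and TIMP1 at -2.26 ± 0.86 on the log2 scale (edgeR adjusted p of 0.337 to 0.405). DESeq2, the tool of the study, called MMP12 (adjusted p = 0.0547) and TIMP1 (adjusted p = 0.0716) lower in VE than in C, among 878 genes of 17532 (5.01%). In HT over C the same 3 genes had an unadjusted p under 0.05, against 12.6% of all genes: MMP9 at -4.76 ± 1.28, MMP12 at -6.24 ± 1.94 and TIMP1 at -2.67 ± 0.84 (edgeR adjusted p = 0.335 each). DESeq2 called all 3 lower in HT than in C, with adjusted p of 0.00139 for MMP9, 0.0299 for MMP12 and 0.0311 for TIMP1, among 740 genes of 17468 (4.24%). In VEHT over C, where each diet holds libraries rich in macrophage markers, no member had an unadjusted p under 0.05, against 2.1% of all genes, with MMP9 at -0.82 ± 1.31, MMP12 at -2.11 ± 1.76 and TIMP1 at -0.02 ± 1.15, and DESeq2 called 1 gene (0.00568%), which was no member.

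The direction in these pairs turned for some members when G041 and G047 were left out of diet C. In VE over C, MMP12 was then at 2.57 ± 0.83 (edgeR adjusted p = 0.559), MMP9 at 0.59 ± 0.74 and TIMP1 at 0.28 ± 0.37, and MMP12 was the member among the 7.55% of genes with an unadjusted p under 0.05. DESeq2 then called MMP12 higher in VE than in C (adjusted p = 0.0797), among 153 genes (0.864%), the reverse of its call with all libraries. G041 and G047 held the highest values of C for MMP9, MMP12 and TIMP1. Leaving them out raises the values over C by construction, so the turn is no support for a direction. The C animals G025, G035, G117 and G206 that remained had 2, 4, 5 and 0 counts of MMP12. The MMP12 level in these libraries was 0.161, 0.358 and 0.679 CPM (lowest, median and highest) in the 6 VE animals, against 0, 0.0681 and 0.122 CPM in the 4 C animals, with no overlap, which 1.88% of genes showed. In VEHT over C without the 3 animals, MMP9 was at 0.20 ± 0.73, MMP12 at 1.53 ± 0.83 and TIMP1 at 0.51 ± 0.54, and no member was among the 5.03% of genes with an unadjusted p under 0.05. In HT over C, the same step left MMP9 at -1.63 ± 0.79, MMP12 at 0.35 ± 1.23 and TIMP1 at -0.12 ± 0.30, each with an adjusted p of 1 in edgeR and none among the 4.82% of genes with an unadjusted p under 0.05, and DESeq2 called 63 genes (0.358%), none of them a member. Over the 21 libraries, the vitamin E effect, which is the mean of VEHT and VE over the mean of HT and C, was 1.88 ± 0.65 for MMP12 and 1.21 ± 0.50 for MMP9, with an edgeR adjusted p of 0.664 for both, and both were among the 7.51% of genes with an unadjusted p under 0.05, while DESeq2 called 19 genes (0.108%). With all 24 libraries the same effect was 0.03 ± 0.66 for MMP12 and 0.68 ± 0.76 for MMP9 in edgeR. DESeq2 gave 0.06 ± 0.94 for MMP12, so the edgeR SE of this value near 0 may be too small. In edgeR 0 members and 0 genes were called (0%), with 3.93% of genes and no member at an unadjusted p under 0.05.

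VE over HT was the 1 pair that held none of the 3 libraries, and MMP9 was the member with the smallest p in it. All 6 VE libraries, at 1.43 to 9.34 CPM, were above all 6 HT libraries, at 0.138 to 1.28 CPM, which 0.506% of genes showed in either direction. The log2 fold change was 2.20 ± 0.63 (edgeR adjusted p = 0.49), so edgeR did not call it, while DESeq2 called it higher in VE (adjusted p = 0.0491) as 1 of 104 genes (0.598%). MMP12 was at 2.20 ± 0.88 (edgeR adjusted p = 0.503), and 4 of 6 VE libraries were above every HT library. Both genes were among the 9.52% of genes with an unadjusted p under 0.05. TIMP1 was at 0.39 ± 0.33, MMP19, a protease of basement membranes, at 0.82 ± 0.45 and MMP2 at -0.55 ± 0.30, and the other members lay between -0.30 and -0.03, none of which passed the test.

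Adding the second antioxidant gave values that depended on G141. Without this animal MMP9, MMP12 and TIMP1 kept their sign in VEHT over HT, while MMP9 and MMP12 changed sign in VEHT over VE. In VEHT over HT, MMP9 was at 3.90 ± 1.07, MMP12 at 4.09 ± 1.39 and TIMP1 at 2.62 ± 0.93, all 3 with an unadjusted p under 0.05, against 7.89% of genes, and with an adjusted p of 0.583 in edgeR. Without G141 they were at 1.84 ± 0.62, 1.20 ± 0.93 and 0.65 ± 0.46 in the same order, with an edgeR adjusted p of 1 each, and MMP9 was then the member among the 4.2% of genes with an unadjusted p under 0.05. MMP9 did not overlap between the diets with or without that animal: the other 5 VEHT libraries were at 1.39 to 5.55 CPM, against 0.138 to 1.28 CPM in HT, and 0.103% of genes showed no overlap over 6 against 6 libraries and 0.219% over 5 against 6. DESeq2 gave no p for MMP9 and MMP12 in this pair, so it left them untested, and it called none of the other 6 members, with 119 genes called in all (0.681%). Without G141 it called 0 genes. In VEHT over VE, TIMP1 was at 2.26 ± 0.95 (edgeR adjusted p = 0.514), MMP9 at 1.73 ± 0.96 and MMP12 at 1.91 ± 1.10. TIMP1 was the 1 member of 8 with an unadjusted p under 0.05, against 9.04% of genes. Without G141 the values were 0.27 for TIMP1, -0.35 for MMP9 and -1.01 for MMP12. DESeq2 called 255 genes in this pair (1.46%), gave no p for MMP9 and MMP12, and called none of the other 6 members.

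**Figure D4:**
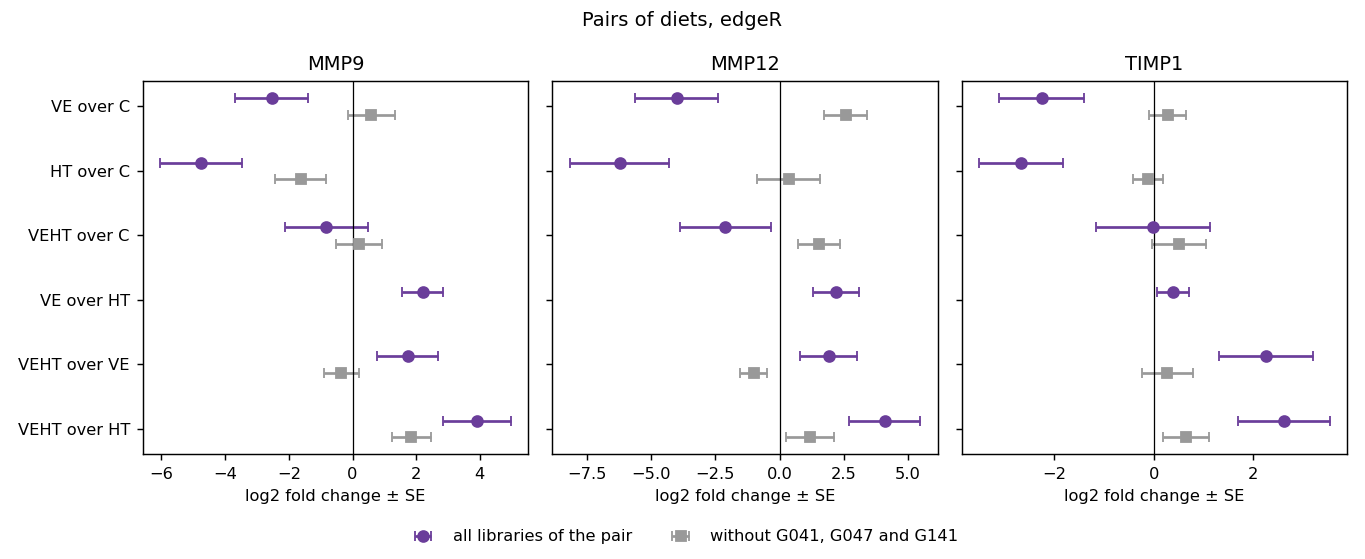
Log2 fold change with its SE of MMP9, MMP12 and TIMP1 in the 6 pairs of diets, from edgeR, with all libraries of a pair (purple) and without G041, G047 and G141 (grey). The horizontal axes differ between panels, VE over HT holds none of these animals, and MMP12 in VE over C stands at -4.01 with all libraries and at 2.57 without the 3.

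The effect of hydroxytyrosol over both vitamin E levels, the mean of VEHT and HT over the mean of VE and C, gave 0 calls among members and genes (0%). MMP12 was at -2.17 ± 1.04 (edgeR adjusted p = 0.787) and was the member with an unadjusted p under 0.05, which 6.22% of genes had, and MMP9 was at -1.53 ± 0.77. Without the 3 animals MMP12 was at -0.32 ± 0.65 and MMP9 at -0.99 ± 0.49, no member was among the 8.26% of genes with an unadjusted p under 0.05, and DESeq2 called 19 genes (0.108%), none of them a member. DESeq2 called 12 genes for the vitamin E effect and 7 for the hydroxytyrosol effect (0.0682% and 0.0398%), none of them a member.

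MMP2, MMP14, MMP19, TIMP3 and TIMP4 were called in no comparison by edgeR or DESeq2. MMP2 was at 547, 815 and 1112 CPM (lowest, median and highest) in VEHT, at 559, 698 and 799 CPM in VE, at 409, 956 and 1723 CPM in HT and at 358, 825 and 1249 CPM in C. The 4 ranges of MMP2 overlapped, and VE was the narrowest. MMP14 was at 351, 421 and 973 CPM in VEHT, at 275, 483 and 526 CPM in VE, at 230, 551 and 842 CPM in HT and at 186, 568 and 735 CPM in C. MMP19 was at 129, 168 and 315 CPM in VEHT, at 59.8, 292 and 570 CPM in VE, at 82.7, 156 and 300.0 CPM in HT and at 59.5, 166 and 466 CPM in C. Its VE median was the highest of the 4 diets, and the VE range covered most of the others. TIMP3 was at 416, 758 and 886 CPM in VEHT, at 702, 873 and 1018 CPM in VE, at 626, 903 and 1133 CPM in HT and at 317, 759 and 1082 CPM in C. TIMP4 was at 22.0, 75.4 and 90.6 CPM in VEHT, at 55.1, 72.3 and 94.3 CPM in VE, at 51.6, 70.7 and 153 CPM in HT and at 15.2, 71.2 and 131 CPM in C. The low ends of VEHT and C in both inhibitors were G141, G041 and G047. In VE over C, edgeR gave -0.21 ± 0.31 for MMP2, -0.24 ± 0.30 for MMP14, 0.59 ± 0.58 for MMP19, 0.28 ± 0.29 for TIMP3 and 0.17 ± 0.44 for TIMP4. In HT over C it gave 0.33 ± 0.42 for MMP2, 0.05 ± 0.39 for MMP14, -0.25 ± 0.52 for MMP19, 0.29 ± 0.32 for TIMP3 and 0.31 ± 0.47 for TIMP4. None of these 10 values passed the test, with adjusted p of 0.734 to 0.968, and SEs of 0.29 to 0.58 leave differences of that size undetected.

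Some members varied together across animals. Over the 24 libraries Spearman's rho, given as a description over libraries that share tissue composition and depth, was 0.85 between MMP2 and MMP14, the proenzyme gene and that of its activator, and 0.90 over the 21 libraries without G041, G047 and G141. TIMP3 and TIMP4 followed at 0.72 (0.58 over 21 libraries). MMP9, MMP12 and TIMP1 also went together, with rho of 0.67 for MMP9 and MMP12, 0.66 for MMP9 and TIMP1 and 0.62 for MMP12 and TIMP1, against 0.51, 0.49 and 0.43 over the 21 libraries. The lowest value was that of MMP12 and TIMP4, -0.58 (-0.38 over 21 libraries). MMP14 and TIMP3 went together more closely over the 21 libraries, at 0.64, than over all 24, at 0.33.

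The members also differed in which markers of the cell types of fat they went with. TIMP1 had a rho of 0.78 with the macrophage markers and 0.78 with the markers of stromal progenitors, the fibroblast-like cells from which adipocytes arise, and these were 0.67 and 0.75 over the 21 libraries. MMP9 and MMP12 had 0.68 and 0.62 with the macrophage markers (0.52 and 0.44 over 21 libraries). TIMP4 went with endothelial markers at 0.82 and adipocyte markers at 0.70, which were 0.74 and 0.56 over the 21 libraries. MMP12 and TIMP1 went against the endothelial markers, at -0.79 and -0.73 (-0.69 and -0.61 over 21 libraries). MMP19 had its highest value with the stromal progenitor markers, 0.50 over all libraries and 0.76 over the 21. MMP2 had its highest value with the same list, 0.36 over all libraries and 0.41 over the 21. Over the 21 it was at -0.43 with T cell and -0.45 with keratinocyte markers. Skeletal muscle markers were negative for every member over all libraries, most of all for MMP14 and MMP19, at -0.53 and -0.43 (-0.63 and -0.68 over 21 libraries). Over the 21, TIMP3 (-0.53), TIMP4 (-0.46), MMP2 (-0.44), TIMP1 (-0.27) and MMP9 (-0.10) were negative with them too, and MMP12 was at 0.21. Bulk RNA does not show which cells made these transcripts.

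**Figure D5:**
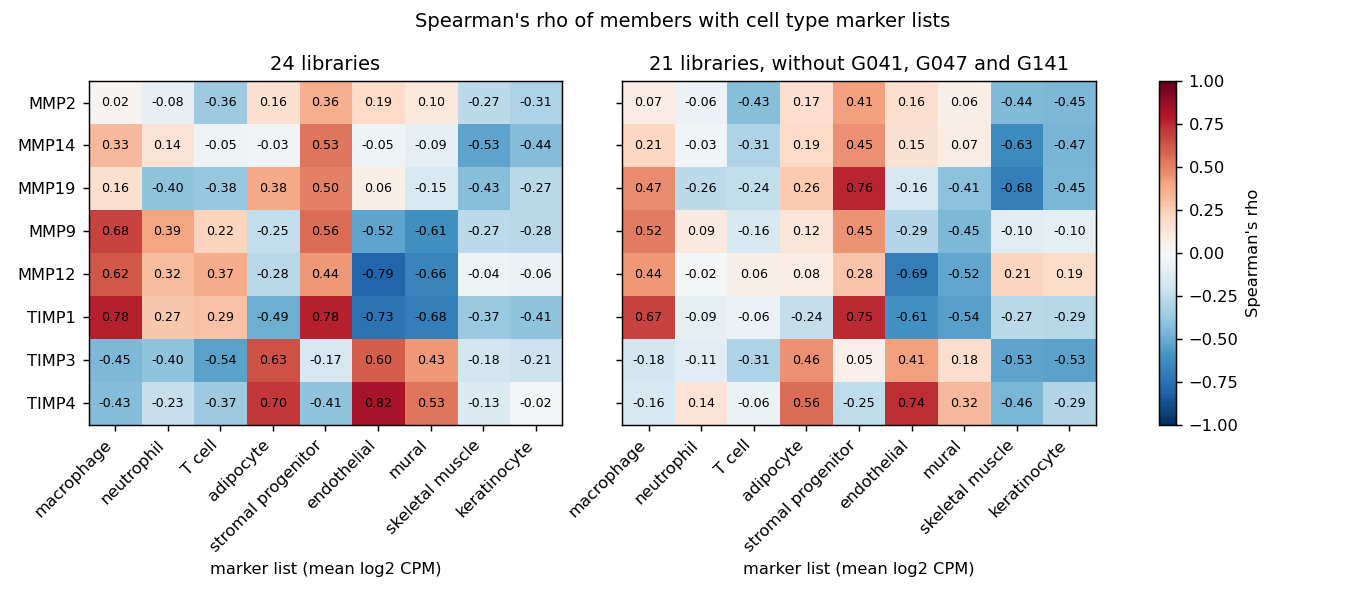
Spearman's rho of each gene's log2 CPM with the mean log2 CPM of 9 cell type marker lists, over 24 libraries (left) and over 21 libraries without G041, G047 and G141 (right), on a colour scale between -1 and 1. TIMP1, MMP9 and MMP12 are positive with macrophage markers and negative with endothelial markers, and TIMP4 is the reverse.

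Among 13689 other genes with a symbol, the 3 with the highest rho to each member were named over the 24 libraries and again over the 21 without G041, G047 and G141. For MMP9, MMP12 and TIMP4 the same 3 genes led both rankings. They were the oxidase gene DUOX2 (0.86), MSMB (0.86) and MPDU1 (0.85) for MMP9, at 0.78 to 0.81 over the 21 libraries. For MMP12 they were the endothelial lipase gene LIPG (0.91), DTD2 (0.86) and KCTD5 (0.85), at 0.80 to 0.87 over the 21 libraries. For TIMP4 they were ACAA1 (0.94), an enzyme of peroxisomal fat oxidation, the WNT receptor gene FZD4 (0.94) and CLSTN3 (0.93), at 0.89 to 0.91 over the 21 libraries. For the other members the ranking depended in part or wholly on the 3 libraries. MMP14 was most like ARHGAP1 (0.88), ATF6B (0.83) and ORAI3 (0.81), and over the 21 libraries like ARHGAP1 (0.89), GTF3C2 (0.88) and ATF6B (0.88). MMP19 was most like the matrix gene FBLN2 (0.90), GPRC5A (0.90) and TMEM43 (0.89), and over the 21 libraries like TFPI2 (0.91), CHPF2 (0.91) and FBLN2 (0.90). TIMP3 was most like ZNF395 (0.93), RBPMS2 (0.88) and APCDD1 (0.87), and over the 21 libraries like ZNF395 (0.90), NIBAN2 (0.87) and BRF2 (0.84). No gene was in both rankings of TIMP1 or of MMP2. TIMP1 was most like GAS7 (0.95), MYBL2 (0.95) and the hyaluronan receptor gene CD44 (0.94) over all libraries and like SFXN3 (0.95), MICAL1 (0.94) and NME1 (0.93) over the 21. MMP2 was most like SORBS3 (0.82), PACS1 (0.79) and ARHGAP1 (0.79) over all libraries and like PLBD2 (0.90), WIZ (0.89) and CAMKK2 (0.89) over the 21. With diet means removed over the 24 libraries, the ranking moved as well, and MMP19 was the member that kept its 3 genes.

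Genes that act with the members were counted in lists for the interaction, since that is where members were called, and 3.95% of all genes were called there. Of 17 other MMPs, 14 were in the table and 13 were tested, and 1 was called, MMP25, a membrane-bound MMP of white blood cells, with 8.09 ± 1.69 (edgeR adjusted p = 0.0362). MMP25 was at 22.7 to 41.7 CPM in G141, G041 and G047, against 0.191 to 4.52 CPM in the other 21 libraries, and its interaction without the 3 was 2.07 (edgeR adjusted p = 0.995). The next smallest p in that list were those of MMP27 (-1.37 ± 0.68) and the neutrophil collagenase gene MMP8 (-2.35 ± 1.25), both not called. Of 15 tested genes that activate or bind MMPs, 1 was called, the broad protease inhibitor gene A2M, with 3.25 ± 0.93 (adjusted p = 0.075) and 1.19 without the 3 animals, followed by CD44 (2.68 ± 1.00) and THBS2 (-1.19 ± 0.45), which were not called. Of 15 ADAM and ADAMTS proteases, relatives of the MMPs that shed surface proteins or cut proteoglycans, 1 was called, ADAM8 of white blood cells, with 4.46 ± 1.26 (adjusted p = 0.0726) and 0.89 without the 3 animals, ahead of ADAM28 (4.67 ± 1.46) and ADAM17 (0.88 ± 0.35), which were not called. With 1 gene called of 13, 15 and 15, these lists stood near the share over all genes.

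Of 14 tested cytokines and transcription factors that induce MMPs, 3 were called in the interaction, all positive. They were the cytokine genes CSF2 (11.01 ± 2.56, adjusted p = 0.0401) and IL1A (6.18 ± 1.66, adjusted p = 0.0654) and the AP-1 gene JUNB (3.01 ± 0.90, adjusted p = 0.0857). JUNB was at 152 to 268 CPM in G141, G041 and G047, against 10.4 to 50.5 CPM in the other 21 libraries, and IL1A at 7.59 to 28.4 CPM, against 0.0665 to 4.18 CPM. CSF2 was at 4.16 to 14.2 CPM in the 3 libraries, against 0 to 1.26 CPM in the other 21. Their interactions without the 3 were 3.44 for CSF2, 1.72 for IL1A and 0.43 for JUNB, each with an adjusted p of 0.995. Of 17 matrix genes that MMPs cut, 0 were called in the interaction by edgeR, and 0 had an unadjusted p under 0.05, with a median of -0.62, against 0.02 over all genes tested. The 3 with the smallest p were the laminin gene LAMA4 (-0.62 ± 0.31) and the collagen genes COL4A2 (-0.86 ± 0.50) and COL1A2 (-1.04 ± 0.63). As for the members, 0 genes of any of these lists were called over the 21 libraries, where edgeR called 0 genes in all.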

How the data were processed

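Dorsal subcutaneous fat RNA of 24 piglets was sequenced with paired-end reads. The deposited values were raw gene counts, which the authors obtained per Ensembl gene with HTSeq-count on reads that TrimGalore had trimmed and HISAT (HISAT2 in the submitters' processing notes) had aligned to the Sscrofa11.1 assembly, and tool versions, annotation release and strand setting are not given in the sources used here. Animals were assigned to diets by column names. Reads in the summary entries of the counter (8.31% to 16.5% of a library without a feature) were left out. No library was a copy of another.

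Counts were tested in R 4.3.3 with edgeR 4.0.16 (quasi-likelihood F test, TMM), pairs on their own 12 libraries and the factorial contrasts on all 24, after dropping genes with 0 counts in 75% or more of the libraries. Genes were called at q at most 0.10 and 1.5-fold or more, the thresholds of the study, and the interaction by q alone. SEs were taken as the size of the log2 fold change over the square root of F. Log2 CPM used a prior count of 2. DESeq2 1.42.0, which the authors used, limma 3.58.1 (voom with sample weights), RLE size factors, other filters, 1 fit of 24 libraries, q at most 0.05 and leaving out each library were alternatives, and fits without G041, G047 and G141 were added after the values were seen. Promoters were read from RefSeq's Sscrofa11.1 genome with samtools 1.23.1, and figures drawn with matplotlib 3.10.9. The members, gene lists and markers were chosen with earlier results of these data known. Named genes were all members, the 3 of each list with the smallest interaction p and any called, and the 3 genes most like each member. The fits were tested on simulated data.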

Additional observations from a re-analysis of the deposited data

Results flagged for a closer look

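Of 32 groups of 6 libraries (8 genes in 4 diets), 2 had a library far from the rest, and chance alone gives such a library in about 5% of groups. MMP12 was at 2.94 log2 CPM in VEHT animal G141, against -1.46 log2 CPM in the next highest VEHT library. TIMP1 was at 6.75 log2 CPM in HT animal G066, against 5.83 log2 CPM in the next highest HT library, and G066 is not 1 of the 3 animals rich in macrophage markers.

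An interaction of vitamin E and hydroxytyrosol was called for 3 members in edgeR at a q of at most 0.10. It was 6.41 on the log2 scale for MMP9, 8.08 for MMP12 and 4.86 for TIMP1 (edgeR adjusted p of 0.056 to 0.0691). None was called at a q of at most 0.05 or with voom, and each call was lost in some fits that left out a single library. The values without G041, G047 and G141 were 1.25, -1.38 and 0.37.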

How the results depend on the processing

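The number of called genes depended on the tool. DESeq2 called 878 genes in VE over C, 740 in HT over C, 1 in VEHT over C, 104 in VE over HT, 255 in VEHT over VE, 119 in VEHT over HT, 12 for vitamin E, 7 for hydroxytyrosol and 1255 for the interaction, against 0 in edgeR except for the 696 of the interaction. Voom called 2 for vitamin E and 0 for the interaction, a q of at most 0.05 left 166 interaction genes, and 21 libraries left 0. Leaving out 1 library gave 0 to 1095 interaction genes (0 without G141, 144 without G041, 147 without G047, 1095 without C animal G206) and 0 to 1 in VE over C (1 without G041 or VE animal G077) and for vitamin E (1 without G141). At q of at most 0.05 the 3 member interactions were no longer called.

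With voom, values that changed sign were MMP9 (0.0696) and MMP12 (1.80) in VE over C, MMP14 in HT over C (-0.00519), MMP12 in VEHT over C (0.88), MMP9 (-0.23), MMP12 (-0.87) and TIMP1 (-0.00434) in VEHT over VE and the MMP14 interaction (-0.10). Without G041, G047 and G141 they were, in VE over C, MMP9 (0.59), MMP12 (2.57), TIMP1 (0.28), TIMP3 (-0.0392) and TIMP4 (-0.28). In HT over C they were MMP12 (0.35), TIMP3 (-0.0239) and TIMP4 (-0.14), in VEHT over C MMP9 (0.20), MMP12 (1.53) and TIMP1 (0.51), in VEHT over VE MMP9 (-0.35) and MMP12 (-1.01), and in the interaction MMP12 (-1.38), MMP14 (-0.14) and TIMP4 (0.12). TIMP1 in VEHT over C, near 0, was at 0.00464 with DESeq2 and 0.00463 with RLE. The cause was not tested.

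Ranges over single omissions crossed 0 for values that were not called: MMP12 (-1.01 to 2.16) and MMP9 (-0.35 to 2.34) in VEHT over VE, MMP12 (-1.41 to 0.79) and MMP9 (-0.35 to 1.64) for vitamin E, MMP14 (-0.13 to 0.21) and MMP19 (-0.48 to 0.22) in HT over C, MMP14 (-0.13 to 0.34) and MMP2 (-0.28 to 0.11) in the interaction, MMP9 (-2.89 to 1.08) and TIMP1 (-1.99 to 0.80) in VEHT over C and TIMP4 (-0.0384 to 0.48) in VE over C. The interactions of MMP9 (4.38 to 7.03), MMP12 (5.20 to 8.79) and TIMP1 (2.89 to 5.14) stayed positive in all 24. RLE and TMM differed by under 0.01 log2 per diet. MMP12 rests on at most 46 counts per library outside the 3 animals. No paired analysis was possible because the columns carry animal numbers and no replicate number.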

Other observations

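LCN2, the gene of a lipocalin that binds MMP9 protein, was chosen after its values were seen. In VE over HT, the pair without any of the 3 animals, LCN2 was at 1.73 ± 0.40 on the log2 scale (edgeR adjusted p = 0.49), and the hydroxytyrosol effect on it was -1.04 ± 0.27 (edgeR adjusted p = 0.787), or -0.89 ± 0.29 without the 3 animals (edgeR adjusted p = 0.574). None of these passed the test. LCN2 was at 19.5 to 62.1 CPM in G141, G041 and G047, against 13.4 to 120 CPM in the other 21 libraries, so it was not highest in the libraries where MMP9 was highest.

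The collagen genes, also named after their values were seen, had positive values in VE over C, at 1.17 ± 0.47 for COL3A1, 1.06 ± 0.39 for COL1A2 and 0.93 ± 0.42 for COL1A1 (edgeR adjusted p of 0.325 to 0.404). The median of the 17 matrix genes in VE over C was 0.53, against -0.03 for all genes tested, and 4 of them had an unadjusted p under 0.05, against 12.1% of all genes, all higher in VE. None was called by edgeR, which called 0 genes of 17532 in this pair. DESeq2 values of these genes are not given here. The study, which used DESeq2, lists COL1A2 and COL3A1 among the differing genes of C and VE and reports collagen genes among those higher in VE. Without G041 and G047 the values were 1.16 ± 0.55 for COL3A1, 1.05 ± 0.46 for COL1A2 and 0.86 ± 0.48 for COL1A1 (edgeR adjusted p of 0.64 to 0.728). COL1A2 was then the 1 gene of the 17 with an unadjusted p under 0.05, against 7.55% of all genes, and the median of the list was 0.33, against 0.02 for all genes tested.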
